A study of Arabidopsis thaliana with 2 samples.

Results

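CR4 (AT3G59420, also named ACR4) and GSO1 (AT4G20140), receptor kinase genes of the embryo surface in Arabidopsis thaliana, were examined in siliques, comparing the mutant rge1-1 with wild-type Col-0 plants. The genes sought were these and every gene whose current symbol begins with CRK, PERK, WAK, SERK, RLK or RLP followed by a digit or letter, among probes assigned to exactly 1 gene. CR4 and GSO1 were the 2 genes found among 8819 named genes, and 0 named probes carried a symbol of the other families, so nothing is reported on those families. Each of the 2 genes had 1 probe, and both genes were therefore set beside 11 other receptor kinase genes with a named probe. Of these, 5 were found from 44 listed names, and the rest were added by name after the probe names had been read. No search for every receptor kinase gene was made, so ranks among receptor kinases hold for these listed genes only.

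The samples were 2 arrays with 2 colours each, labelled as replicates 1 and 2, and each carried rge1-1 silique RNA in Cy3 against Col-0 silique RNA in Cy5. Siliques, which are the fruits with the seeds inside, were taken at 12 DAF from untreated plants grown at 22 °C under 16 h of light and 8 h of dark. The labels do not tie the arrays to separate plants, so the p-values below measure the spread between 2 arrays, which may be technical. A whole silique mixes embryo, endosperm, seed coat and fruit wall, so fewer cells of a type and less RNA per cell cannot be told apart. The deposited values are ratios of the 2 genotypes and not levels, so the presence of each tissue's markers, and the level of a receptor gene in either genotype, cannot be read from them. Whether the shares of these tissues differed between the genotypes was not tested.

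RGE1, also named ZHOUPI, is a transcription factor made in the endosperm. It is known to promote expression of ALE1, a subtilase, and ALE1 acts in a peptide signal to the embryo that the receptor kinases GSO1 and GSO2 perceive. That signal is needed for an unbroken cuticle on the embryo. ACR4 is a receptor kinase of the outermost cell layer, related to CRINKLY4 of maize, and acts with the receptor kinase ALE2 in forming the epidermis. Of 14 listed partners in this pathway, including RGE1, ALE1, ALE2, GSO2 and the peptide gene TWS1, 0 had a named probe, so neither the mutated gene nor the other components could be read.

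The sign of every ratio below is the deposited one. The table does not say which genotype is the numerator: a positive value means more transcript in Col-0 if the ratio is Cy5 over Cy3, and more in rge1-1 if it follows the order of the sample titles. Values were read as log10 and are given on the log2 scale. Both arrays had the same dye orientation, so a probe's preference for one dye cannot be told apart from a difference of genotype. The arrays were not centred, with medians over all probes of 0.16 on replicate 1 and 0.022 on replicate 2 on the log2 scale.

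CR4 and GSO1 were both positive on both arrays. CR4 had a log2 ratio of 0.98 on replicate 1 and 0.61 on replicate 2, or 1.98-fold and 1.53-fold. Both values lie above the array medians, and the ratio was larger on replicate 1. The mean was 0.80 ± 0.26 (SD, n = 2), or 1.74-fold, with a 95% interval from limma of 0.30 to 1.30, which is 1.23-fold to 2.47-fold. GSO1 had a log2 ratio of 0.48 on replicate 1 and 0.39 on replicate 2, or 1.39-fold and 1.31-fold. The 2 arrays were close for this gene. The mean was 0.43 ± 0.063 (SD, n = 2), or 1.35-fold, with a 95% interval from limma of 0.056 to 0.81, which is 1.04-fold to 1.76-fold.

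Neither gene passed the test over the whole table. With limma and Benjamini-Hochberg adjustment over 21426 rows, a row being a named gene or a single unnamed probe, the adjusted p was 0.665 for CR4 and 0.665 for GSO1, and 0% of all rows had an adjusted p under 0.05. Beside these adjusted p values, limma's unadjusted p was 0.0151 for CR4 and 0.0356 for GSO1. Both genes were chosen with earlier results of these data known, so these unadjusted p values and the intervals above are not free of selection. The same holds for the counts, shares and ranks of the 2 genes given below. Positive rows with an unadjusted p under 0.05 made up 3.52% of all rows. A positive sign on both arrays was common: 42.5% of rows had it, and 30.6% still had it with each array centred on its median, against 2 of 2 for CR4 and GSO1 in either case. CR4 was at least 1.5-fold positive on both arrays, as were 0.975% of rows, and GSO1 was not.

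With the array medians subtracted, the ratio of CR4 was 0.82 on replicate 1 and 0.59 on replicate 2, and that of GSO1 was 0.32 and 0.37. The same 2 medians were subtracted from both genes. The arrays lay closer together for GSO1, and its higher value was on replicate 1 before centring and on replicate 2 after it. The median of 99 probes with neighbouring probe numbers was 0.090 and 0.022 around CR4 and 0.19 and 0.049 around GSO1, for replicates 1 and 2. GSO1 therefore exceeded its surroundings on replicate 1 by less than its deposited value shows. Whether probe numbers follow positions on the slide is not given in the sources used here.

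Against all other rows, CR4 lay near the positive end on both arrays. On replicate 1, 2.01% of the 21426 rows were more positive than CR4, and on replicate 2 it was 2.13%. GSO1 was passed by 11.5% of rows on replicate 1 and by 5.20% on replicate 2. Ranked by the mean of the arrays, 101 of 8819 named genes were more positive than CR4 and 485 were more positive than GSO1. Taking both arrays at once, 43 named genes exceeded CR4 on replicate 1 and on replicate 2, and 190 exceeded GSO1 on both. The spread of CR4 between the arrays was wider than that of 68.2% of rows, whereas the spread of GSO1 was wider than that of only 19.7%.

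**Figure D1:**
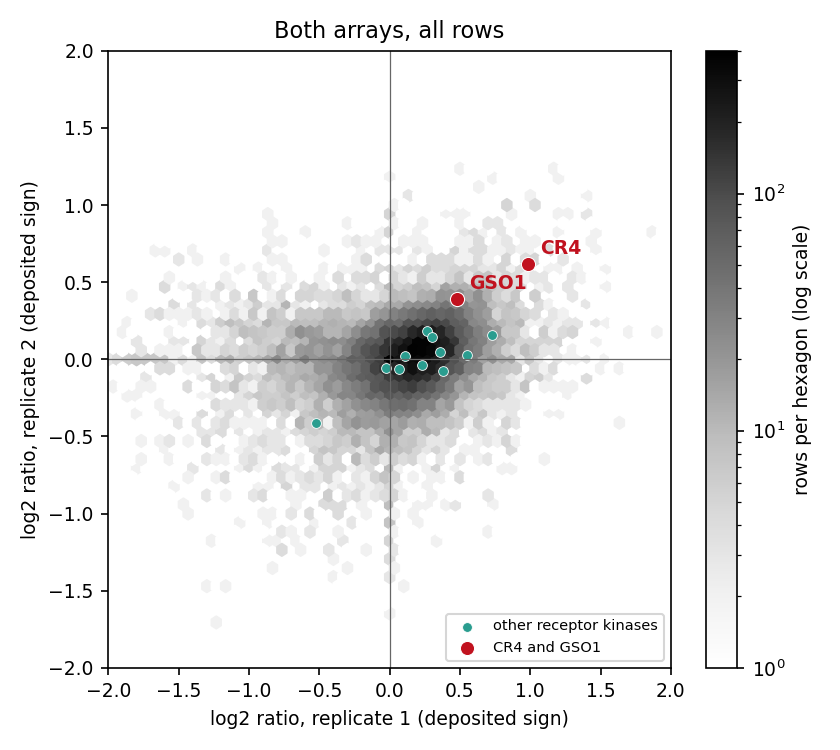
Log2 ratio of replicate 1 (x axis) against replicate 2 (y axis), with the deposited sign, as hexagons shaded by the number of rows on a log scale; 21177 rows lie in the drawn range and 249 outside it. CR4, at 0.98 and 0.61, and GSO1, at 0.48 and 0.39, are the red points, and the green points are the 11 other receptor kinase genes, of which all but PSY1R lie nearer to 0 than GSO1 on replicate 2.

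The ratio of CR4 exceeded that of GSO1 by 0.50 on replicate 1 and by 0.23 on replicate 2, a mean difference of 0.37 ± 0.20 (SD, n = 2). CR4 was thus higher on both arrays. No test of this difference is given, because with 2 arrays an exact two-sided sign-flip permutation test cannot give a p below 0.5. Such a test has the same limit for a single gene, where limma's p also draws on the spread of all rows.

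Among the 13 listed receptor kinase genes, CR4 ranked 1 on replicate 1, on replicate 2 and by the mean. Rank 1 is the most positive ratio. GSO1 ranked 4 on replicate 1, 2 on replicate 2 and 3 by the mean. The other 11 genes had a median log2 ratio of 0.26 on replicate 1 and 0.022 on replicate 2, while all rows had 0.16 and 0.022. Positive ratios on both arrays were found for 6 of these 11 genes, against 42.5% of all rows, and negative ratios on both for 2, against 16.6%. With each array centred on its median the counts were 5 positive and 4 negative, where 30.6% of all rows were positive and 30.6% negative. At 1.5-fold on both arrays the count was 0 in either direction, where 0.975% of rows were positive and 1.56% negative. By limma's adjusted p, 0 of the 11 genes passed, and 1 was negative with an unadjusted p under 0.05, as were 3.09% of all rows.

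The gene next above GSO1 by the mean was SD1-29, which encodes an S-domain receptor kinase that senses fatty acid metabolites of bacteria. It was 0.72 on replicate 1 and 0.16 on replicate 2, with a mean of 0.44 ± 0.40 (SD, n = 2), so the order of SD1-29 and GSO1 by the mean is within the spread of either gene. Next below GSO1 was PXL2 (AT4G28650), a leucine-rich repeat receptor kinase gene related to the vascular receptor gene PXY, at 0.55 on replicate 1 and 0.025 on replicate 2. SD1-29 and PXL2 ranked 2 and 3 on replicate 1, above GSO1, and 4 and 7 on replicate 2, below it. PXL1 (AT1G08590), the second PXY-related gene, was 0.38 on replicate 1 and -0.076 on replicate 2. On replicate 2 the genes next to GSO1 were CR4 above it and ANX1 below it.

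FER, THE1 and ANX1 encode receptor kinases with malectin-like domains that bind or sense the cell wall. FER, which receives RALF peptides and acts in pollen tube reception, was 0.36 on replicate 1 and 0.048 on replicate 2. ANX1, a gene of the pollen tube, had a log2 ratio of 0.26 on replicate 1 and 0.18 on replicate 2. THE1, which senses damage to the cell wall, was 0.11 on replicate 1 and 0.022 on replicate 2, and its mean turned negative once the arrays were centred. All 3 were positive on both arrays as deposited and stood below CR4 and GSO1 on both.

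Among the leucine-rich repeat receptors, EMS1, which specifies the tapetum of the anther, was 0.30 on replicate 1 and 0.14 on replicate 2. EFR, the receptor of the bacterial elongation factor EF-Tu, was 0.065 and -0.063. B120, an S-domain receptor kinase gene, was 0.23 and -0.039. NCRK, a receptor-like kinase gene whose product binds ROP GTPases, was -0.028 on replicate 1 and -0.056 on replicate 2. EFR and B120 had opposite signs on the arrays as deposited, and all 4 genes stood below GSO1 on both.

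PSY1R stood furthest from CR4. It encodes a leucine-rich repeat receptor kinase linked to the growth peptide PSY1. Its log2 ratio was -0.52 on replicate 1 and -0.41 on replicate 2, with a mean of -0.47 ± 0.078 (SD, n = 2), and it ranked 13 of 13 on both arrays. Limma gave it an unadjusted p of 0.0304 and an adjusted p of 0.665, and 3.09% of all rows were negative with an unadjusted p under 0.05. As deposited, its mean was close in size to that of GSO1, with the opposite sign. With each array centred on its median, the means were -0.56 for PSY1R and 0.34 for GSO1.

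**Figure D2:**
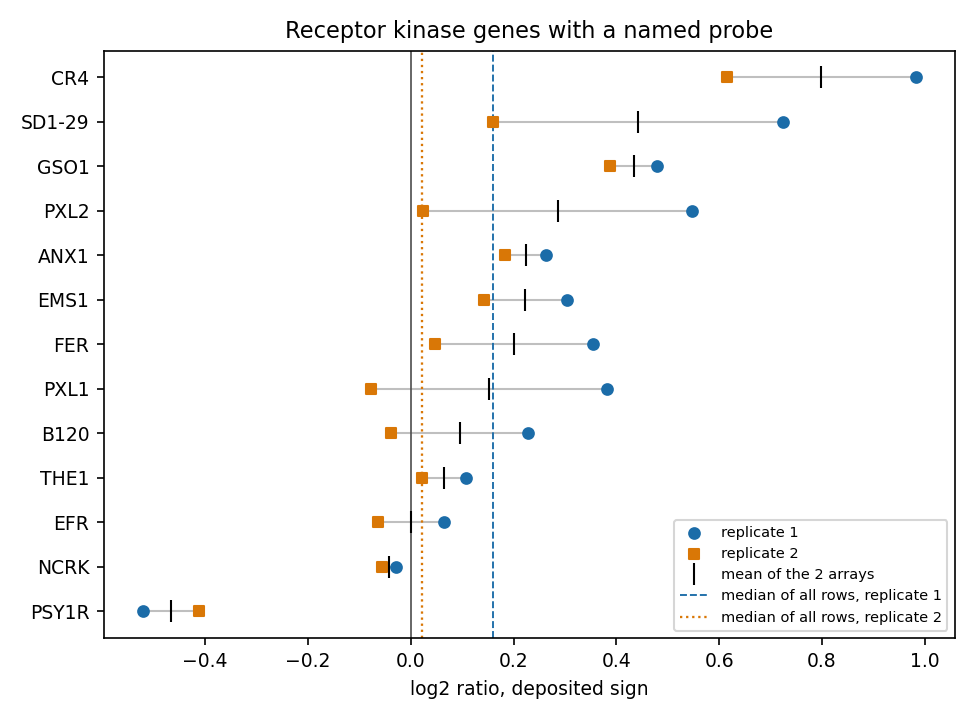
Log2 ratio with the deposited sign (x axis) of the 13 listed receptor kinase genes, ordered by the mean of the 2 arrays. Circles are replicate 1, squares replicate 2 and black ticks the means. The dashed and dotted lines are the medians of all rows on replicates 1 and 2. CR4 is highest on both arrays, GSO1 is second on replicate 2, and PSY1R is lowest on both.

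Genes for ligands, partners and downstream components of receptor kinases had ratios of both signs, as all rows did. Among 9 peptide ligand genes, 3 had positive and 1 had negative ratios on both arrays, or 1 and 4 with centring. Over all rows these shares were 42.5% and 16.6%, or 30.6% each with centring. None passed limma's test (0 of 9 by adjusted p, and 0 at an unadjusted p under 0.05). CLV3, the stem cell peptide of the shoot meristem, was 0.56 on replicate 1 and 0.076 on replicate 2. CLE41, the peptide that PXY perceives, was 0.59 and 0.011. RALFL26, of the RALF peptide family, was -0.45 and -0.15. RALFL33, of the same family, was -2.21 on replicate 1 and exactly 0 on replicate 2, so its mean of -1.10 rests on replicate 1 alone.

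Of the 3 genes of receptor partners, QKY, which acts with the receptor kinase STRUBBELIG, had a mean log2 ratio of 0.077 ± 0.024, and IKU1, which acts with a leucine-rich repeat receptor kinase in endosperm growth, had one of 0.055 ± 0.0099 (SD, n = 2 each). Both means turned negative once the arrays were centred. S1P, a subtilase that cleaves RALF precursors, was 0.38 on replicate 1 and -0.057 on replicate 2.

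Among 6 genes for downstream components, 2 had positive and 3 had negative ratios on both arrays, or 0 and 4 with centring. The shares over all rows were 42.5% positive and 16.6% negative, or 30.6% each with centring. By adjusted p 0 of 6 passed in limma, and 1 was negative with an unadjusted p under 0.05, as were 3.09% of all rows. BIK1, a cytoplasmic kinase that immune receptors phosphorylate, was -0.44 on replicate 1 and -0.34 on replicate 2, with an unadjusted p of 0.0471 from limma and an adjusted p of 0.665. APK1A, a related cytoplasmic kinase gene, was -1.40 and -0.27, and POL, a phosphatase gene that acts in the CLAVATA pathway, was -1.13 and -0.32. The 3 genes were negative on both arrays, by far more on replicate 1 for APK1A and POL. ATMPK8, a mitogen-activated protein kinase gene, was 0.092 and 0.15.

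**Figure D3:**
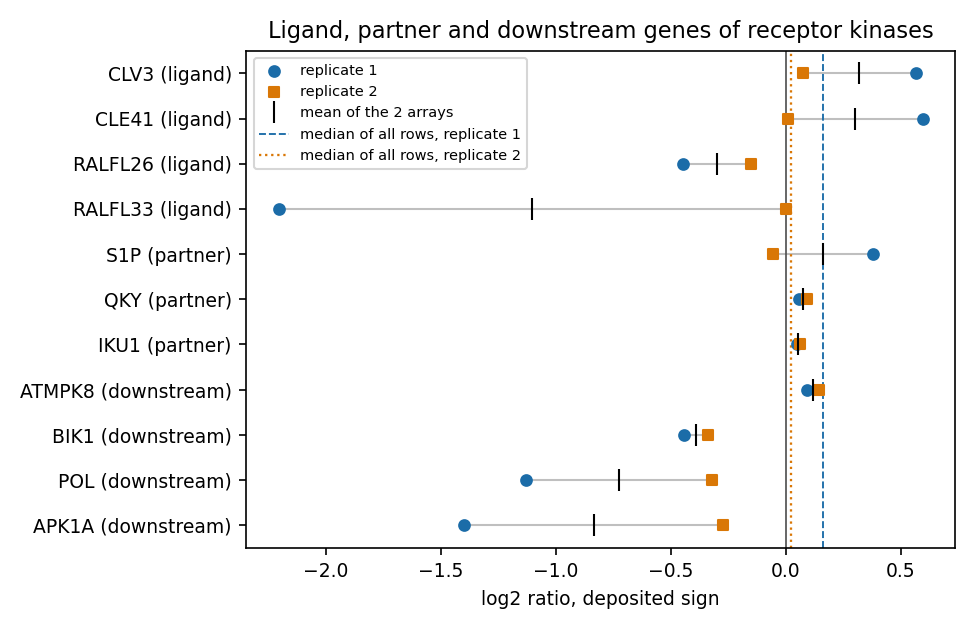
Log2 ratio with the deposited sign (x axis) of named ligand, partner and downstream genes of receptor kinases; circles are replicate 1, squares replicate 2, black ticks the means, and the dashed and dotted lines the medians of all rows on replicates 1 and 2. BIK1, APK1A, POL and RALFL26 are negative on both arrays, and RALFL33 is at -2.21 on replicate 1 and at 0 on replicate 2.

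The chromosomal neighbours of CR4 and GSO1 had ratios nearer to 0. Among the 10 protein-coding genes nearest in gene order to CR4 on chromosome 3, 3 had a named probe, and their mean log2 ratios ran from -0.059 to 0.099. Of the 10 nearest to GSO1 on chromosome 4, 1 had a named probe, AT4G20150, the next gene, with a mean of -0.047. Gene order was taken from the TAIR10.1 gene table, and no coordinates are given because the build behind the probes is not given in the sources used here.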

How the data were processed

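The authors deposited 1 table of ratios for 21500 probes on 2 arrays, read here as log10. The scanner software named per the submitters' processing notes was Agilent Feature Extraction 7.1.1. How dyes were normalized, background removed or probes filtered is not stated there. Base 10 was inferred from the form of the values and is not written in the table.

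Probes with 1 gene name (8893) took current symbols through gene IDs, and probes of 1 gene were averaged, which left 21426 rows. Ratios were multiplied to the log2 scale and set against 0 in limma 3.58.1 (R 4.3.3; intercept only, eBayes, two-sided, Benjamini-Hochberg over all rows, threshold 0.05). The residual degrees of freedom were 1 per row and those of the prior 1.97. The script was tested on simulated data. Precision is limited by the number of arrays.

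CR4, GSO1 and the gene lists were chosen with earlier results of these data known. EMS1, SD1-29, B120, PXL1, PXL2 and NCRK, with CLV3, PTI1-4, APK1A, ATMPK8, ATMPK13, POL, QKY, IKU1 and S1P, were added by name after the table of probe names had been read. One further gene added in this way was removed, after its ratio had been seen, because its locus proved to be another gene than its symbol was taken for. The genes named were CR4, GSO1, the 11 other listed receptor kinase genes and up to 4 genes of each other list by the size of the mean.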

Additional observations from a re-analysis of the deposited data

How the results depend on the processing

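CR4 and GSO1 stayed positive under each of 11 alternatives. Means ran from 0.24 to 0.98 for CR4 and from 0.13 to 0.48 for GSO1, lowest with values read as log2. None of these alternatives could change the sign for these 2 genes. Zeros left out, robust eBayes, no moderation and each probe alone left both means as they were, and reading as log2 only rescaled them. Leaving out a replicate gave the value of the other array, already positive. Centring, scaling and the running median could change the sign, and gave means of 0.71, 0.70 and 0.74 for CR4. For GSO1 these were 0.34, 0.36 and 0.32. The count of 0 limma calls for these genes held with centring, scaling, zeros left out, robust eBayes, no moderation, each probe alone and a threshold of 0.10, and with 2 alternatives chosen after seeing the data, the running median and zeros left out with centring. Adjusted p ran from 0.193 to 0.808 for CR4 and from 0.468 to 0.808 for GSO1, lowest with zeros left out. Their median of 0.62 was 0.1855 with values read as log2. The count of 1 gene at 1.5-fold was 0 at 2-fold and 0 with values read as log2. Without replicate 1 or without replicate 2, CR4 ranked 1 and GSO1 between 2 and 4. With scaling, or among only the receptor kinases listed beforehand, GSO1 ranked 2.

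Of 22 other named genes, 7 changed sign in 20 cases. Their means were 0.16 or less, though PXL1 and S1P each had 0.38 on replicate 1. With centring (zeros kept or left out), scaling and the running median, the means were -0.0266, -0.0215 and -0.0690 for THE1, -0.0900, -0.0909 and -0.0864 for EFR, and -0.0362, -0.0209 and -0.0231 for IKU1. QKY was -0.0144 with centring (zeros kept or left out) and -0.0510 with the running median, and B120 was -0.0097 with scaling. Leaving out replicate 1 or replicate 2 gave -0.0628 and 0.0648 for EFR, -0.0389 and 0.229 for B120, -0.0764 and 0.382 for PXL1, and -0.0568 and 0.379 for S1P. The cause was not tested. Symbols to be left out as no receptor-like proteins did not occur, so that alternative was not run. No paired analysis was possible because the 2 arrays form 1 group and the ratio already pairs the genotypes.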
